A study of Mus musculus with 2 samples.

Results

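Isolated peaks are here those called p53 peaks of mouse embryonic kidney that stood far from any other. Their nearest other peak on the same chromosome lay more than 500 kb away, midpoint to midpoint. They numbered 381 of the 7893 peaks in the list, which is 4.83% (95% interval 4.36 to 5.32%). The other 7512 peaks had a neighbour within that distance. The data come from chromatin immunoprecipitation followed by sequencing (ChIP-seq), which recovers DNA fixed to a protein by means of an antibody. The tissue was snap-frozen wild-type kidney of the C57BL strain at the embryonic stage E15.5, and p53 was precipitated for 1 library. A further library of input DNA from the same kind of tissue was not analysed here. Without a replicate, the values have no replicate error. Intervals are exact and cover counting error only, and they take each peak as independent although peaks close together may not be. The number of embryos pooled is not given in the sources used here.

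p53 is a tetrameric transcription factor that reads a repeated short motif in DNA. It controls genes of cell cycle arrest, apoptosis, DNA repair and metabolism, and many of its sites lie in promoters and enhancers. In the embryonic kidney, where nephron progenitors divide and differentiate, its dose is kept under tight control by ubiquitin ligases. Genes are unevenly spread along mammalian chromosomes, in gene-rich stretches and in gene-poor stretches often called deserts. Positions are given in the mm9 build, and no genome or annotation of that build was used here. Sequences under the peaks and their nearest genes were therefore not analysed here, and each peak is named by its position.

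The members were chosen by the measured positions of the peaks alone. Score and width came from the same peak call on the same library, so all differences below are descriptions and carry no test. The score is the authors' own value for each peak, as MACS, the peak caller named in the file, wrote it. Its scale is not stated in the file, a higher score marks stronger support for a peak, and it stopped at 3100. Peaks at that score cannot be ranked among themselves.

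The isolated peaks had lower scores and were narrower at the median than the other peaks. Their median score was 90.2 (95% interval of the median 85.8 to 95.4), with quartiles of 72.1 and 128. The median of the other peaks was 97.3 (95.7 to 98.7), with quartiles of 73.5 and 144. Their median width was 771 bp (733 to 829), with quartiles of 576 and 1036 bp. The other peaks had a median width of 875 bp (864 to 887), with quartiles of 664 and 1149 bp. Both sets overlapped over most of their range, and the shift was a small part of the spread within either set. The mean score ran the opposite way, 144 in isolated peaks and 136 in the others. Without the peaks at the highest score the means were 121 and 131. The 3 isolated peaks at that score thus set the order of the means, and medians are used below.

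**Figure D1:**
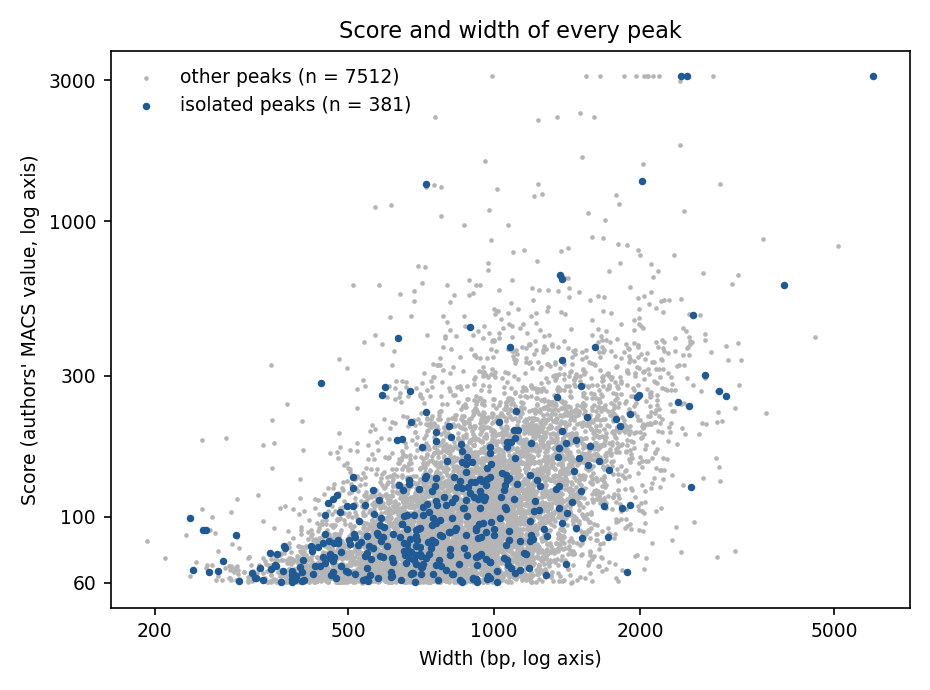
Score against width for each peak on log axes, with isolated peaks in blue and other peaks in grey. The isolated peaks lie within the cloud of the others, with a median width of 771 bp against 875 bp, and 3 of them sit at the highest score of 3100.

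Narrow peaks made up a larger part of the isolated set. Of the isolated peaks, 67 (17.6%, 95% interval 13.9 to 21.8%) were narrower than 500 bp, next to 623 (8.29%, 7.68 to 8.94%) of the others. On autosomes alone these shares were 15.9% and 8.04%. At the wide end the sets did not separate: 12 isolated peaks (3.15%, 1.64 to 5.44%) were wider than 2000 bp, next to 201 of the others (2.68%, 2.32 to 3.07%). The narrowest isolated peak was chr2:149399658-149399894, at 237 bp with a score of 98.9. Next came chr2:135149728-135149967, at 240 bp with a score of 66.1.

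Width rises with score across the list, so widths were also compared within score classes. Score and width had a Spearman's rho of 0.51 across isolated peaks and of 0.57 across the others, given as a description since peaks share the library. The median width of isolated peaks was lower in each class below a score of 300. From 60 to below 75 the medians were 644 bp in 119 isolated peaks and 655 bp in the others. From 75 to below 100 they were 693 bp in 102 isolated peaks and 802 bp in the others. From 100 to below 150 they were 888 and 959 bp, and from 150 to below 300 they were 1084 and 1195 bp. Among the 15 isolated peaks scoring 300 or more the order was the opposite, 1613 bp next to 1400 bp. Split at 1000, it was so only in the upper part. The 10 isolated peaks from 300 to below 1000 had a median of 1379 bp, next to 1390.5 bp in the others. The 5 at 1000 or more had 2428 bp, next to 1560 bp. On autosomes the lowest class also turned, with 676 bp in isolated peaks and 658 bp in the others, and the remaining classes kept their order.

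The distance classes show where along the distance scale the lower medians began. The median score was 99.8 and the median width 916 bp for peaks within 10 kb of another. The medians of peaks 100 to 200 kb from the next were 96.0 and 868 bp. Those 200 to 500 kb away, outside the isolated set, already stood at 89.0 and 779 bp. The classes inside the set were close to this last one in width, at 782 bp from 500 to 750 kb, 759 bp from 750 to 1000 kb and 763 bp beyond 1000 kb. Score did not follow one direction inside the set: the medians were 90.2, 85.4 and 102 in these classes. With members taken from beyond 1000 kb only, the median score was therefore above that of all other peaks (102 next to 96.8, 96 members). Median width thus changed little across the 500 kb distance itself.

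**Figure D2:**
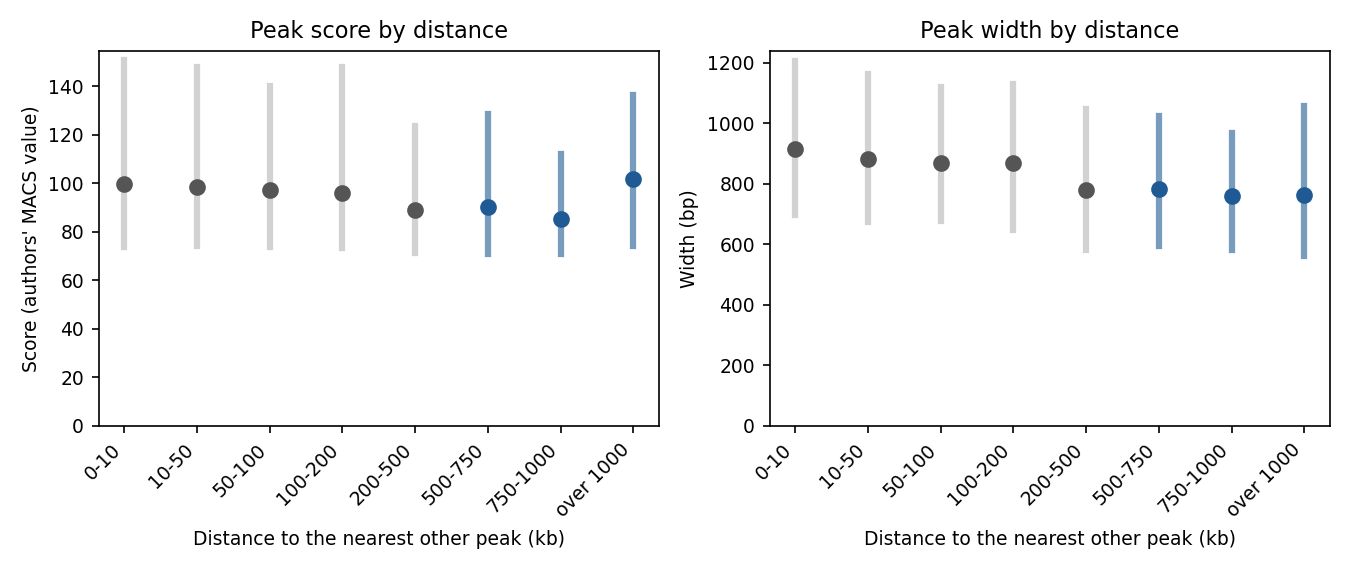
Median (points) and quartiles (bars) of score, left, and of width in bp, right, by distance in kb to the nearest other peak, with classes of isolated peaks in blue. Median width is 868 bp at 100 to 200 kb and 779 bp at 200 to 500 kb, and stays between 759 and 782 bp in the isolated classes.

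The 3 peaks nearest to the 500 kb distance on each side are given as a description. Just inside were chr1:169859823-169860368 (nearest peak at 500.3 kb, score 61.6, width 546 bp) and a neighbouring pair on chromosome 2 separated by 500.8 kb. The pair consisted of chr2:146337494-146338419, with a score of 73.6 and a width of 926 bp, and chr2:146838064-146839535, with a score of 183 and a width of 1472 bp. Just outside were chr13:54166883-54167854 (499.4 kb, score 107, 972 bp), chr15:72398846-72399419 (498.9 kb, score 115, 574 bp) and chr18:39152275-39153089 (497.0 kb, score 102, 815 bp).

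Isolated peaks were present in each score class, most of them weak. Of the 381, 221 (58.0%) scored below 100 and 145 (38.1%) lay from 100 to below 300. A further 10 (2.62%) lay from 300 to below 1000, and 5 (1.31%) reached 1000 or more. The shares among other peaks were 52.1, 43.0, 4.39 and 0.519%. Read the other way, isolated peaks were 5.35% of the peaks below 100 (95% interval 4.68 to 6.08%) and 4.30% of those from 100 to below 300 (3.64 to 5.03%). They were 2.94% of those from 300 to below 1000 (1.42 to 5.34%). In the top class they were 5 of 44, or 11.4% (3.79 to 24.6%). The intervals of all 4 classes hold the 4.83% of the whole list, and that of the top class, with 44 peaks, is the widest.

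**Figure D3:**
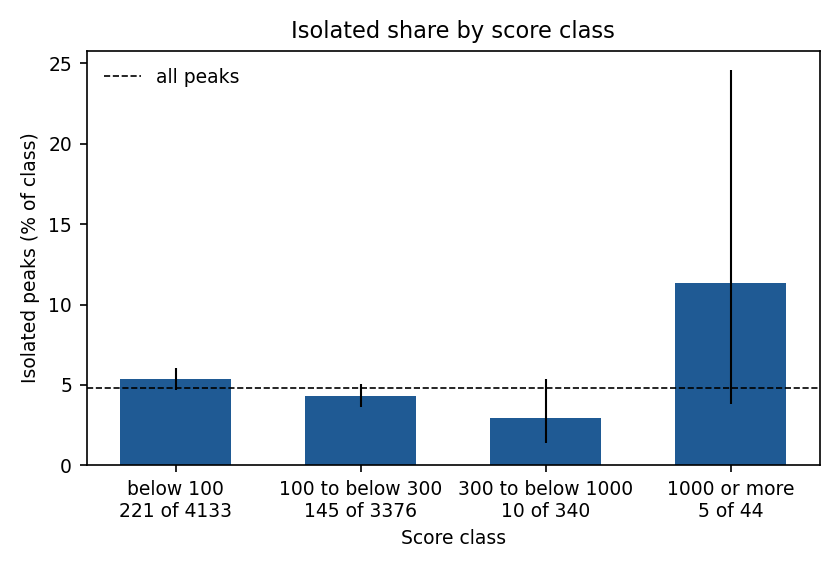
Isolated peaks as a percentage of all peaks in each score class, with exact 95% intervals as error bars and the 4.83% of the whole list as a dashed line. The share is 5.35% below a score of 100, 2.94% from 300 to below 1000, and 11.4% in the top class of 44 peaks, where the interval is widest.

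The strongest isolated peaks included some of the strongest of the list. Of the 15 peaks at the highest score, 3 were isolated. The first, chr17:39979847-39985876, was 6030 bp wide, the widest peak of the whole list, with 2.80 Mb free of peaks before it and 1.09 Mb after it. Whether its sequence is present in many copies in the genome was not tested. The next, chr1:46909190-46911685, was 2496 bp wide, with its nearest peak 928 kb before it and 4.62 Mb without a peak after it. The last, chr2:49306531-49308958, was 2428 bp wide and only just inside the set, at 503 kb from its nearest peak. The first 2 of these had 1 other peak within 2 Mb on either side, and the last had 5. Within 5 Mb the counts were 41, 12 and 14, next to a median of 19 for isolated peaks.

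The remaining isolated peaks with a score of 1000 or more differed in width. At chr11:17058746-17060758 the score was 1366 and the width 2013 bp, with neighbours 651 and 794 kb away. At chr10:46505329-46506052 the score was 1333 and the width 724 bp, less than the median of isolated peaks. This narrow, strong peak had 1.21 Mb free of peaks before it and 3.81 Mb after it. The 5 isolated peaks of this class had a median width of 2428 bp, next to 1560 bp in the other 39, a comparison over very few members.

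From 300 to below 1000 the 10 isolated peaks lay on 7 chromosomes. The highest were chr10:4540105-4541471, with a score of 660 and a width of 1367 bp, and chr14:13116352-13117727, with 640 and 1376 bp. Then came chr13:81022492-81026446, with a score of 608 and a width of 3955 bp, the next widest isolated peak after that on chromosome 17. At chr12:119538895-119541462, the last peak of its chromosome, the score was 484 and the width 2568 bp. At chr9:24307391-24308280 the score was 439 at a width of 890 bp. The other wide members were weaker. chr16:42874441-42877438 was 2998 bp wide with a score of 256, chr14:117324270-117327164 was 2895 bp wide with a score of 267, and chr18:84255748-84258456 was 2709 bp wide with a score of 301.

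The highest-scoring isolated peak of each remaining chromosome scored between 139 and 377. It reached 377 on chromosome 3 (chr3:127539949-127541028), 284 on chromosome 8 (chr8:32910336-32910775), 267 on chromosome 6 (chr6:126260299-126260968) and 259 on chromosome 5 (chr5:133018119-133020106). The peak on chromosome 8 was 440 bp wide and that on chromosome 5 was 1988 bp wide, at similar scores. It reached 194 on chromosome 4 (chr4:91042807-91043565), 178 on the X chromosome (chrX:146912189-146913380), 172 on chromosome 19 (chr19:17911498-17912479) and 167 on chromosome 15 (chr15:5066002-5066860). The lowest of these maxima was 139, on chromosome 7 (chr7:74517321-74518503).

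The most remote peaks were of ordinary score. The 10 with the largest distance to the nearest other peak scored between 61.5 and 124. The farthest was chrX:84483491-84483989, 499 bp wide with a score of 109, with 9.43 Mb free of peaks before it and 6.59 Mb after it. Next was chrX:108274250-108274501, 252 bp wide with a score of 90.6, 5.05 Mb from the previous peak and 21.95 Mb from the next. These 2 were the only members with no other peak within 5 Mb on either side. On autosomes the most remote was chr4:26273235-26274152 (score 61.5, width 918 bp), with 4.41 Mb before it and 5.75 Mb after it. chr8:55614766-55615819 (score 108, 1054 bp) followed at 4.35 Mb from its nearest peak, and chr1:113760482-113761992 (score 122, 1511 bp) at 3.82 Mb.

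Chromosome 5 held 2 of these remote peaks, chr5:58181795-58182269 (score 118, 475 bp) and chr5:81448560-81449608 (score 124, 1049 bp), 3.79 and 3.71 Mb from their nearest peaks. A pair near the end of chromosome 17, chr17:91866251-91866717 (score 115, 467 bp) and chr17:95148684-95149718 (score 117, 1035 bp), stood 3.28 Mb from each other, and the latter was the last peak of the chromosome. The tenth, chr16:70314075-70315104 (score 99.4, 1030 bp), lay 2.69 Mb from its nearest peak. Width among these 10 ran from 252 to 1511 bp.

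The stretches that held isolated peaks were long and mostly unequal on the 2 sides. Their length follows in kind from the rule, and the farther side is by definition never the shorter. The values give the size of both. Of the 381 members, 372 had a peak on both sides and 9 were the first or last peak of a chromosome. The stretch from the previous to the next peak had a median of 2.37 Mb, with quartiles of 1.77 and 3.77 Mb and extremes of 1.03 and 27.0 Mb. It was shorter than 2 Mb for 133 members and longer than 5 Mb for 50, of which 7 lay on the X chromosome. The median distance to the nearer peak was 760 kb and to the farther peak 1.59 Mb. The farther side was a median of 1.81 times the nearer side (quartiles 1.33 and 2.84), and more than 5 times in 30 members. At chr15:13104141-13104623 (score 75.9, width 483 bp), for example, the nearer peak was 853 kb away and the farther 12.2 Mb.

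**Figure D4:**
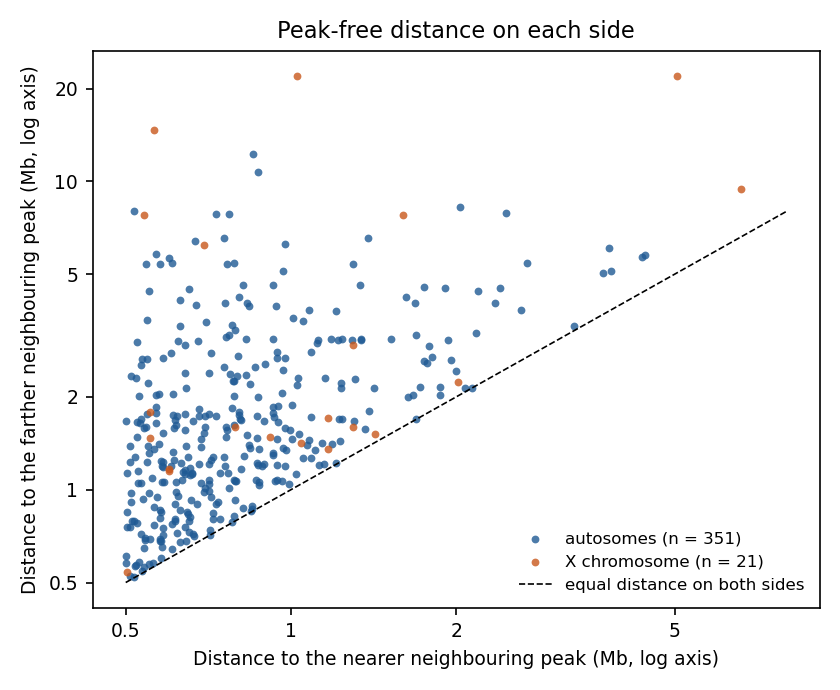
Distance in Mb to the farther neighbouring peak against that to the nearer one, on log axes, for the 372 isolated peaks with a peak on both sides, autosomes in blue and the X chromosome in orange. By definition no point can lie below the dashed line of equal distances. The median ratio is 1.81, and the X chromosome holds the longest side, 21.95 Mb.

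Isolated peaks were few next to the length of chromosome they stood in. When each position between the outermost peaks of a chromosome was given to its nearest peak, the isolated peaks held 609 of 2549 Mb, or 23.9%, with 4.83% of the peaks. The median length held was 1.18 Mb for an isolated peak and 0.113 Mb for another peak. This follows in kind from the rule, and the values give its size. Within 2 Mb on either side an isolated peak had a median of 6 other peaks (quartiles 3 and 9), next to 20 (12 and 36) for the others. Of the isolated peaks, 96 had none within 1 Mb and 24 none within 2 Mb.

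Not every isolated peak stood in a peak-poor part of its chromosome. Within 5 Mb the isolated peaks had between 0 and 136 other peaks (median 19), and the others between 3 and 152 (median 43). The clearest case, chosen after its values were seen, was chr13:24372653-24373377, with a score of 72.6 and a width of 725 bp. Its neighbours were 519 kb before and 520 kb after it, yet 36 other peaks lay within 1 Mb. At chr10:78560099-78560610, also chosen after its values were seen, 61 other peaks lay within 2 Mb. Such members stood beside dense groups of peaks, whereas most of the remote members above stood in long sparse stretches. Among those, chr17:91866251-91866717 had 19 other peaks within 5 Mb, the same as the median of isolated peaks.

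Most long gaps between peaks did not border an isolated peak on both sides. Of 7873 gaps between consecutive peaks, 1188 (15.1%) were longer than 500 kb, and together they made up 71.5% of the distance between peaks. Of these, 571 (48.1%) had no isolated peak at either end, 481 (40.5%) had 1 and 136 (11.4%) had 2. The median gap was 0.996 Mb with no isolated peak at an end, 1.04 Mb with 1 and 1.05 Mb with 2. Of the 42 gaps longer than 5 Mb, 29 ended at an isolated peak on at least 1 side and 13 on neither. Long gaps thus often ended in a group of peaks and not in a single one.

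Isolated peaks often followed one another, which the rule itself favours. A direct neighbour of an isolated peak already has a gap longer than 500 kb on that side. It needs such a gap only on its other side to be isolated. Of all gaps, 15.1% were longer than 500 kb, and 4.83% of all peaks were isolated. Whether rows were more frequent than the rule gives was not tested. Of the 381, 154 had no isolated peak as a direct neighbour, and 227 formed 91 rows of 2 or more consecutive isolated peaks. Rows of 2 numbered 68 and rows of 3 numbered 13, and 10 rows were longer. The longest held 7 peaks over 11.7 Mb on chromosome 16, between 67621078 and 79343125. Its scores ran from 60.3 to 119 with a median of 79.9, and its widths from 345 to 1411 bp. Rows of 6 lay on chromosome 1 (16646287 to 25285742, scores 70.9 to 217) and on chromosome 2 (76485598 to 83564888, scores 62.1 to 203).

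Rows of 5 differed in score. On chromosome 5, from 12243153 to 18732821, the scores ran only from 61.4 to 77.1, and the widths from 355 to 766 bp. On chromosome 16, from 45158024 to 49856338, they ran from 90.8 to 223 with a median of 160. On the X chromosome, from 136219198 to 147452120, they ran from 102 to 178 with a median of 123. The rows were found by looking at the positions alone, and their scores are given as a description.

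Isolated peaks were also compared with the peak nearest to each. Of the 381, 186 (48.8%) scored above their nearest peak and 181 (47.5%) were wider than it. For 143 of the 381 the nearest peak was itself isolated. Where such peaks are each other's nearest, they add equally to both sides of the count, whatever their values. These shares are therefore partly set by the rule and carry no conclusion. For 238 of the 381 the nearest peak was not itself isolated. Their median score was 87.3 and that of their nearest peaks 89.1, and the median widths were 760 and 813 bp. The nearest peaks thus had medians below those of all other peaks (97.3 and 875 bp), closer to the isolated peaks themselves. Neither difference was tested.

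Chromosomes differed in the share of their peaks that were isolated. On autosomes it was lowest on chromosome 11, with 13 of 696 (1.87%, 95% interval 0.998 to 3.17%), followed by chromosomes 4 (2.06%), 19 (2.08%) and 8 (2.41%). It was highest on chromosome 1, with 34 of 426 (7.98%, 5.59 to 11.0%), followed by chromosomes 10 (7.93%), 13 (7.76%) and 16 (7.39%). The intervals of chromosomes 1 and 11 did not overlap, while those of 1, 10, 13 and 16 overlapped almost whole. These chromosomes were picked as the extremes of the 19 autosomes, so the overlap does not serve as a test. Across the 19 autosomes the share was lower where more protein-coding genes lay per Mb of the distance between the outermost peaks (Spearman's rho -0.72, a description). Gene numbers were counted per chromosome in RefSeq of GRCm38.p6. The share was likewise lower with more peaks per Mb (rho -0.77), which is built from the same positions as the rule. Isolated peaks per 100 Mb were less closely ordered by genes per Mb (rho -0.29).

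The X chromosome held the largest isolated share and an ordinary number of isolated peaks for its length. Of its 122 peaks, 23 were isolated (18.9%, 95% interval 12.3 to 26.9%), next to 358 of 7771 on autosomes (4.61%, 4.15 to 5.10%). Per 100 Mb between the outermost peaks it held 14.5, and the autosomes together held 15.0. Single autosomes ranged from 7.24 on chromosome 4 to 24.7 on chromosome 10. The X chromosome held 0.767 peaks per Mb, below the 2.21 of chromosome 1, the sparsest autosome. By the same measure as above, isolated X peaks held 45.5% of the distance between its outermost peaks, and isolated autosomal peaks between 9.10% (chromosome 19) and 32.7% (chromosome 16) of theirs.

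**Figure D5:**
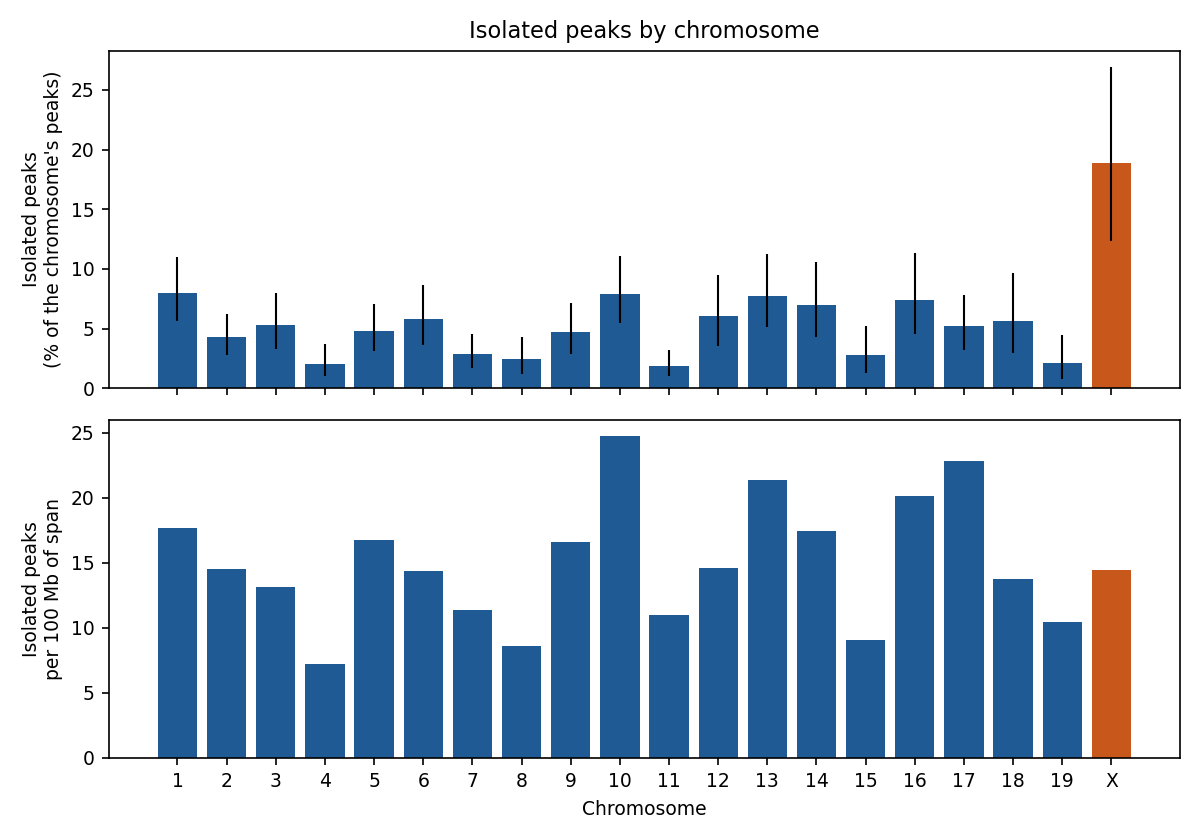
Isolated peaks as a percentage of each chromosome's peaks, top, with exact 95% intervals as error bars, and isolated peaks per 100 Mb between the outermost peaks, bottom, with the X chromosome in orange. The X chromosome has the largest share, 18.9%, but with 14.5 per 100 Mb lies among the autosomes, which range from 7.24 to 24.7.

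The isolated X peaks were the narrowest group, with a median of 513 bp (95% interval of the median 460 to 636) next to 623 bp (590 to 676) for the other 99 X peaks, and these intervals overlapped. Their scores ran from 61.2 to 178. Their median score was 102 (70.6 to 128), next to 86.0 for the other X peaks (79.7 to 90.2), the opposite order to that on autosomes, again with overlapping intervals. Because X peaks made up 6.04% of the isolated set and 1.55% of the list, medians were also taken on autosomes alone. There the median scores were 89.2 for isolated peaks and 97.7 for the others, and the median widths 795 and 879 bp. The width difference was thus 84 bp on autosomes and 104 bp over all chromosomes.

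The lower medians were not present on every chromosome. The median score of isolated peaks was lower than that of the others on 13 chromosomes and higher on 7, namely chromosomes 2, 7, 9, 16, 17, 18 and X. The largest shift up was on chromosome 18, 126 next to 92.9 with 12 isolated peaks, and the largest down was on chromosome 15, 74.4 next to 98.3 with 9. The median width was lower on 16 chromosomes and higher on 4, namely chromosomes 1, 2, 16 and 18. On chromosome 15 it was 591 bp next to 910 bp, and on chromosome 11 it was 680 bp next to 953 bp. With 6 to 34 isolated peaks per chromosome, no single chromosome gives a precise median.

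The 9 isolated peaks at the ends of the peak-covered parts of chromosomes had a peak on 1 side only, so their isolation rests on that side. Their scores ran from 60.8 to 484 with a median of 90.4, and their widths from 255 to 2568 bp. The lowest was chr6:3151360-3151657, the first peak of chromosome 6, with a score of 60.8 and a width of 298 bp. The narrowest was chr9:3258734-3258988, the first of chromosome 9, at 255 bp with a score of 90.4. Both had their nearest peak within about 1 Mb, at 803 kb and 1051 kb.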

How the data were processed

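One peak list was used, that of the p53 library. It holds 5 fields per peak: chromosome, start, end, name and a score. Peaks were called with MACS, per the file headers, and the build is mm9, per the submitters' processing notes. The deposited score is the authors' value, with its scale not stated. For the aligner, the MACS version and settings, duplicate reads and the control, the entry is: not given in the sources used here. Read counts are not in the list, so depth is unknown.

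Midpoints were sorted per chromosome and the distance to each neighbour taken. Starts are given 1-based. Shares carry Clopper-Pearson intervals and medians order-statistic intervals, both at 95%. No test was made. The members and lists were chosen with earlier results of these data known. The peaks named are the 10 highest-scoring, 5 widest and 10 most remote members, the highest-scoring of each chromosome, and 3 on each side of the 500 kb distance. Others are examples. Finding isolated peaks was run on simulated positions to check the code only. No simulated distance was drawn close to 500 kb, so the run says nothing on that choice. Alternatives were distances of 250 and 1000 kb, edge-to-edge distance, peaks scoring at least 100 only, merging within 1 kb, and leaving out chromosome-end peaks or the X chromosome. Python 3.11.15, numpy 2.4.6, pandas 2.3.3, scipy 1.17.1 and matplotlib 3.10.9 were used.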

Additional observations from a re-analysis of the deposited data

How the results depend on the processing

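The number of isolated peaks follows from the distance chosen: 860 at 250 kb and 96 at 1000 kb, next to 381. Under the other alternatives it was 372 to 479. With only peaks scoring at least 100 it was 479 of 3760 (12.7%), as fewer peaks leave larger gaps. The median score of isolated peaks minus that of the others was -7.10. It stayed between -10.86 and -7.01 under the other alternatives, and reversed to 5.19 at 1000 kb, with 96 members. The interval there (-10.8 to 21.6) includes 0. The cause was not tested. The width difference of -104 bp stayed between -112.5 and -79 bp under all 6 alternatives run. Its interval at 1000 kb (-171 to 38 bp) includes 0. Both intervals are those of the isolated median, less the other peaks' median taken as fixed. They leave out the error of that other median. The X share of isolated peaks rose from 6.04 to 12.5% at 1000 kb and was 4.88 to 5.85% otherwise. The share of peaks scoring from 300 to below 1000 that were isolated was 6.76% at 250 kb and 0.882% at 1000 kb, next to 10.9 and 1.22% of all peaks at these distances. For peaks scoring 1000 or more, the alternatives were chosen after seeing the data, as for the class below it. The isolated share was 15.9% (7 of 44) at 250 kb and 4.55% (2 of 44) at 1000 kb. All peaks stood at 10.9 and 1.22% at these distances. Under the other alternatives it was 11.4 to 11.6%, next to 4.61 to 5.20% of all peaks. No paired analysis was possible because the study has only 1 ChIP library. Without read numbers, whether deeper sequencing would place further peaks in the gaps cannot be judged.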
